A study of Homo sapiens with 38 samples.

Results

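The clustered protocadherin genes were examined for H3K27ac and H3K27me3 in K562 cells, a human chronic myeloid leukemia line with erythroid features. Members were the protein-coding genes of the GENCODE hg19 annotation on chromosome 5 whose symbol starts with PCDHA, PCDHB or PCDHG, which gave 53 of 20163 protein-coding genes on chromosomes 1 to 22, X and Y. There were 15 PCDHA, 16 PCDHB and 22 PCDHG members, all on the plus strand. Each member was scored over the window of 1.5 kb either side of its outermost annotated first exon start, here called its promoter window, and a window was called when a peak overlapped it by at least 1 bp.

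The marks were profiled by CUT&Tag, in which an antibody tethers a transposase that cuts and tags the chromatin around the mark. The 8 benchmark libraries, all made without the deacetylase inhibitor TSA, with 15 PCR cycles and SDS extraction, were 2 replicates each of ab177178 (1:100), ab4729 (1:100) and Diagenode C15410196 (1:50) for H3K27ac, and of CST-9733 (1:100) for H3K27me3. Each had 1 peak list from MACS2 and 1 from SEACR, with 21317 to 34897 and 10930 to 15614 peaks for H3K27ac and 65638 to 77412 and 83643 to 85248 for H3K27me3. The other 30 libraries, 1 for each condition, varied antibody, dilution, TSA, cycles and extraction, and 5 of them used CST-9733. The study's reporting summary calls the benchmark replicates biological, without saying whether they were separate cultures of this 1 line, and p-values measure the spread between these libraries. Peak lists hold no read counts, so the depth behind a missing peak cannot be read from them, the fragment totals of the study's supplement were not used here, and absence below means only that no peak was called.

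Clustered protocadherins are cell adhesion molecules, best known in neurons, where each cell uses its own combination of isoforms as a surface identity. In the PCDHA and PCDHG clusters, a large variable exon with its own promoter carries the extracellular part of each protein and is spliced to constant exons that all members of the cluster share, while PCDHB genes are mostly single exons (PCDHB16 and PCDHB9 have more in the annotation used). CTCF and cohesin act on the promoters, and most promoters hold a conserved sequence element with the core CGCT. The C-type genes, which lie last in the PCDHA and PCDHG clusters, are known to be used more uniformly between neurons than the others. H3K27ac marks active promoters and enhancers, and H3K27me3 is the mark of Polycomb repression.

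The clusters lay one after the other. The PCDHA span, from the start of PCDHA1 to the end of the shared last exon, was chr5:140165721-140391932 (hg19, 226 kb), with PCDHAC1 and PCDHAC2 as its last members. The PCDHB span, from PCDHB1 to PCDHB15, was chr5:140430959-140628933 (198 kb), and the PCDHG span, from PCDHGA1 to the constant exons after PCDHGC5, was chr5:140710081-140892544 (182 kb). Between PCDHB and PCDHG stood SLC25A2 and TAF7, a general transcription factor subunit gene.

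The 150 bases before the canonical start are printed for 8 members, each on the plus strand of hg19 with the letters CGCT in capitals. The first 5 are members whose promoter window overlapped an H3K27me3 peak in both libraries by MACS2, and all but PCDHGA11 also by SEACR. PCDHB1, PCDHA1 and PCDHAC2 are members with no peak of either mark. They come from chr5:140855383-140855532, chr5:140864447-140864596, chr5:140868498-140868647, chr5:140800468-140800617, chr5:140557221-140557370, chr5:140430809-140430958, chr5:140165575-140165724 and chr5:140345911-140346060, in this order.
PCDHGC3: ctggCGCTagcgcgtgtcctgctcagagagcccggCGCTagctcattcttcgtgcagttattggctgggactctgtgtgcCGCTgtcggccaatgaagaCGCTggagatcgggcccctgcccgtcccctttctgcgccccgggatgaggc
PCDHGC4: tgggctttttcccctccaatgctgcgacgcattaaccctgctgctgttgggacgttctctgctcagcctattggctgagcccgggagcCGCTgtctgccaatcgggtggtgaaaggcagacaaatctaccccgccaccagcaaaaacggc
PCDHGC5: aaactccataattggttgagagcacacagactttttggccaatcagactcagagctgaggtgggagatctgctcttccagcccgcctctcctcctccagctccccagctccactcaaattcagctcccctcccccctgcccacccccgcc
PCDHGA11: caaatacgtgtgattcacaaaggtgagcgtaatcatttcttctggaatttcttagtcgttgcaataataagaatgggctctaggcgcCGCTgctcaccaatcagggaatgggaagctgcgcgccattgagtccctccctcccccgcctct
PCDHB8: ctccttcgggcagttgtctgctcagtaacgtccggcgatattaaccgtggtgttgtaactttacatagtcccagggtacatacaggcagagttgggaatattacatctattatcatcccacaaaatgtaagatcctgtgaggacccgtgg
PCDHB1: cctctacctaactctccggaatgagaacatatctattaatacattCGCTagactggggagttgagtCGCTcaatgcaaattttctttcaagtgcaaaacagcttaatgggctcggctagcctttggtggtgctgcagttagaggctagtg
PCDHA1: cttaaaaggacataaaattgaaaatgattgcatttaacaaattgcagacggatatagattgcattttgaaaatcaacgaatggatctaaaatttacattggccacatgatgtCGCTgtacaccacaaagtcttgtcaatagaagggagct
PCDHAC2: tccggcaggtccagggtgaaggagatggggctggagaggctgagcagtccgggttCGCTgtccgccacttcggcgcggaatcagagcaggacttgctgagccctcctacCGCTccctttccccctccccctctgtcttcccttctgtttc

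The core letters were found in members of all clusters, with and without H3K27me3. On the coding strand, CGCT was present from 250 bases before to 50 after the canonical start in 51 of 53 members, PCDHA9 and PCDHGC5 being the others, against 66.1% of all protein-coding promoters. Counting either strand, the values were 51 members and 82.0%. Between 90 and 20 bases before the start, a range chosen after the positions were seen, 45 members (84.9%) held it on the coding strand against 27.2% of all promoters, namely 13 of 15 PCDHA, 13 of 16 PCDHB and 19 of 22 PCDHG members. In PCDHGC3 it stood 4 times in the printed bases, at 146, 115, 70 and 51 before the start, while PCDHGC4 and PCDHGA11 held it once each, at 62 and 63. Of the 17 members with an H3K27me3 call in at least 1 benchmark list, 16 held CGCT on the coding strand, as did 35 of the 36 without one. A match of these letters is a description and not a binding site.

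None of the 53 promoter windows carried an H3K27ac peak in any of the 12 benchmark H3K27ac lists. Over all protein-coding promoters, at least 1 of the 6 libraries had a peak at 53.2% by MACS2 and 49.3% by SEACR, and at least 3 of 6 had one at 49.2% and 42.7%. No H3K27ac peak stood in any of these 12 lists at 45.6% of promoters, so a promoter without the mark was common. The other 25 H3K27ac libraries (34 lists), TSA-treated ones included, also gave 0 of 53. Their lists were sparser, with a median of 0.124% of the genome covered by MACS2 and 0.264% by SEACR. The benchmark medians were 1.16% and 1.87%, so a missing peak says less in the other libraries. The share of all promoters called in those lists was not counted. All 8 markers of the K562 lineage (GATA1, TAL1 and KLF1 among them, transcription factors of red cell development) had H3K27ac in at least 3 of 6 libraries by both callers. CD3E, SNAP25, ALB and COL1A1, markers of T cells, neurons, hepatocytes and fibroblasts, had none in any benchmark list.

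**Figure D1:**
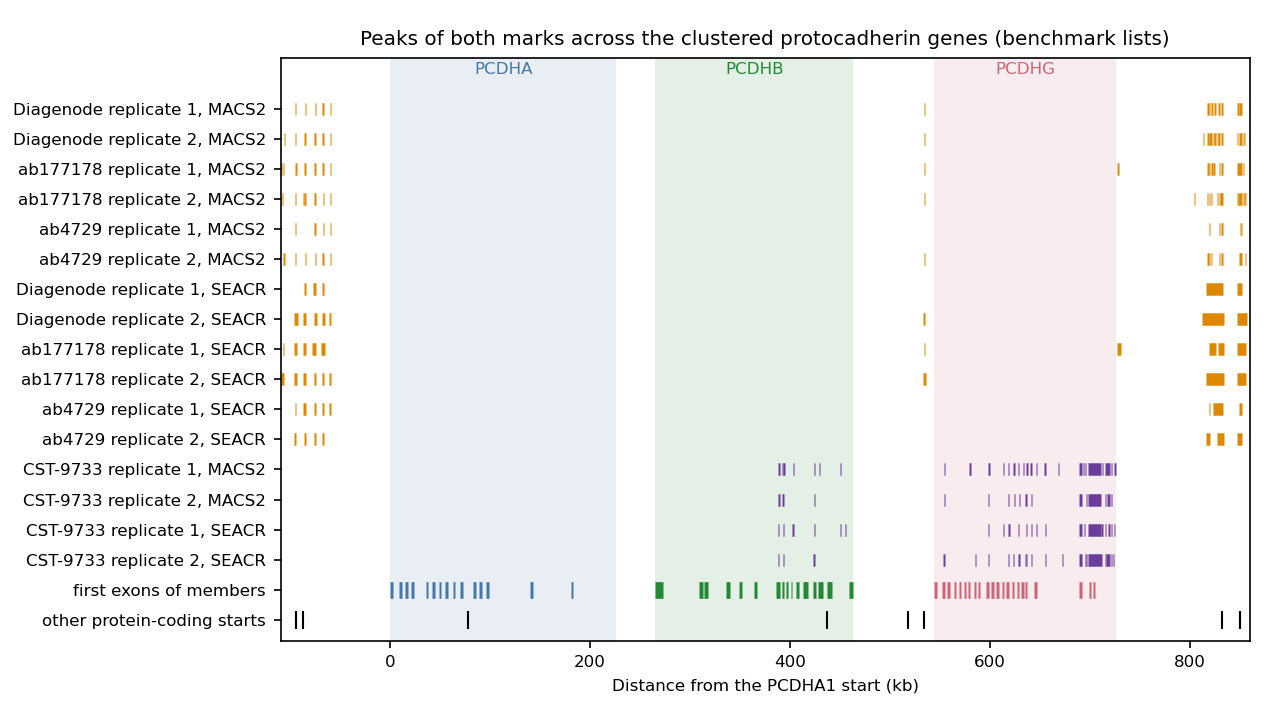
Peaks of the 16 benchmark lists (rows, orange for H3K27ac and purple for H3K27me3) by distance from the PCDHA1 start in kb, with the spans of the 3 clusters shaded and the first exons of the 53 members and the starts of other protein-coding genes below. Peaks under 1.2 kb are drawn 1.2 kb wide. No orange peak lies in a shaded span, and the purple ones lie in PCDHB and PCDHG, with none in PCDHA.

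The stretch without H3K27ac ran over whole clusters. Not 1 base of the PCDHA, PCDHB or PCDHG span was covered in the 6 benchmark libraries by either caller, while the same lists covered 1.08% ± 0.246 (SD, n = 6) of the genome by MACS2 and 2.00% ± 0.410 (SD, n = 6) by SEACR. With every cluster at 0, the differences from the genome are set by the genome share alone, and those between clusters are 0, so the tests say nothing more of the clusters. The genome share counts repeats and gaps too.

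Counted in genes, the gap ranked high. From PCDHA1 to SLC25A2, 34 consecutive protein-coding promoters over 518 kb (31 of them members) had no H3K27ac peak in any benchmark list, which tied for rank 8 among 3439 such runs. The run that ranked first held 70 genes, from OR4B1 to LRRC55 on chromosome 11, through olfactory receptor genes. The 22 PCDHG members formed a run of their own, PCDHGA1 to PCDHGC5, over 159 kb, at rank 20.

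By MACS2 the gap was bounded by peaks at the same places in most benchmark libraries, and by SEACR the bounds varied more. Upstream, the last H3K27ac peak ended 59.8 to 59.9 kb before PCDHA1 in the 6 MACS2 lists and 59.4 to 66.6 kb before it in the 6 SEACR lists. After PCDHA1, the next peak stood at the start of TAF7, 534 kb on, in 5 of 6 MACS2 lists and 533 to 534 kb on in 3 of 6 SEACR lists. At TAF7 the fold over background by MACS2 was 18.4 and 16.1 in ab177178, 8.93 in ab4729 replicate 2, and 9.76 and 20.1 in Diagenode replicates 1 and 2. TAF7 had no peak in ab4729 replicate 1 by either caller, nor by SEACR in ab4729 replicate 2 and Diagenode replicate 1, and there the gap held 57 promoters, over 879 kb by MACS2 in the first of these. Beyond PCDHG the next peak was 77.3 to 92.6 kb past the last exon in 5 of the 6 libraries by MACS2, and 0.947 kb past it in ab177178 replicate 1.

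H3K27me3 was uneven across the 3 clusters. In both CST-9733 benchmark libraries, MACS2 called 5 of 53 members (9.43%) and SEACR called 5 (9.43%), against 21.7% and 21.3% of all protein-coding promoters. Among promoters with no H3K27ac in any benchmark list, the background was 41.3% by MACS2 and 41.3% by SEACR. In at least 1 of the 2 libraries the counts were 8 (15.1%) by MACS2 and 15 (28.3%) by SEACR, against 29.0% and 27.1% of all promoters. PCDHB8, PCDHGC3, PCDHGC4 and PCDHGC5 were called in all 4 lists. By MACS2 in replicate 1, the PCDHB8 call rested on a peak of 229 bp with a -log10 q of 1.22, the lowest value in that list. PCDHGA11 was the fifth member by MACS2 and PCDHB12 the fifth by SEACR. The PCDHGA11 call in replicate 1 came from a peak on the first exon of its neighbour PCDHGB7 (chr5:140799112-140799468), also with a -log10 q of 1.22.

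By cluster, no PCDHA member was called in any H3K27me3 list. Of 16 PCDHB members, MACS2 called PCDHB8 in both libraries and PCDHB13 in 1, and SEACR called PCDHB8 and PCDHB12 in both and PCDHB7 and PCDHB9 in 1. Of 22 PCDHG members, 4 were called in both libraries by MACS2 and 3 by SEACR, and 6 and 11 in at least 1. Members called by SEACR in a single library included PCDHGA2, PCDHGB3 and PCDHGA6, and the first and last PCDHB members (PCDHB1 and PCDHB15) and PCDHGA1 were called in no list. PCDHGB3 and PCDHGA6 were called from the same peak, on the PCDHGB3 first exon, and PCDHB9 through an overlap of 4 bp. In all, 36 of the 53 had no peak of either mark in their window in any of the 16 benchmark lists. The share of all promoters by that rule was not counted. In the lists of each caller alone, 45 members (84.9%) had neither mark by MACS2 and 38 (71.7%) by SEACR. Of all protein-coding promoters, 24.6% and 27.5% had neither.

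PCDHGC5, the last variable exon of the PCDHG cluster, had 100% of its promoter window under H3K27me3 in both libraries by both callers. For PCDHGC4, its neighbour, the covered share was 65.7% and 72.9% by MACS2 in replicates 1 and 2, and 58.0% and 76.9% by SEACR. For PCDHGC3 the values were 54.0% and 52.5% by MACS2 and 56.5% and 61.4% by SEACR. In the benchmark lists no other member's window was covered to over 38.8%.

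Outside the C-type genes coverage was lower and varied with the list. The PCDHB8 window was covered to 7.63% and 22.6% by MACS2 and to 15.0% and 8.56% by SEACR in replicates 1 and 2. For PCDHGA11 the shares were 11.8% and 37.02% by MACS2, and 0% and 38.8% by SEACR. The 11.8% came from the peak on the PCDHGB7 first exon. PCDHB12, the PCDHB member with the highest single value, reached 33.8% by SEACR in replicate 2 against 1.5% in replicate 1, and was not called by MACS2. In PCDHB8 the order of the replicates changed between the callers.

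The same C-type genes recurred in the other CST-9733 libraries. PCDHGC3, PCDHGC4 and PCDHGC5 were called in 10 of 10 lists of 7 libraries, the 11-cycle and 13-cycle libraries with either extraction included. Over these 10 lists the covered share ranged from 20.9% to 61.4% for PCDHGC3, from 38.4% to 83.6% for PCDHGC4 and from 47.2% to 100% for PCDHGC5. PCDHB8 followed with 7 lists of 4 libraries, then PCDHGA7 and PCDHGA11 with 4 lists of 3 libraries each. PCDHAC1 and PCDHAC2, the C-type genes of the PCDHA cluster, were in 0 of 10 lists.

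**Figure D2:**
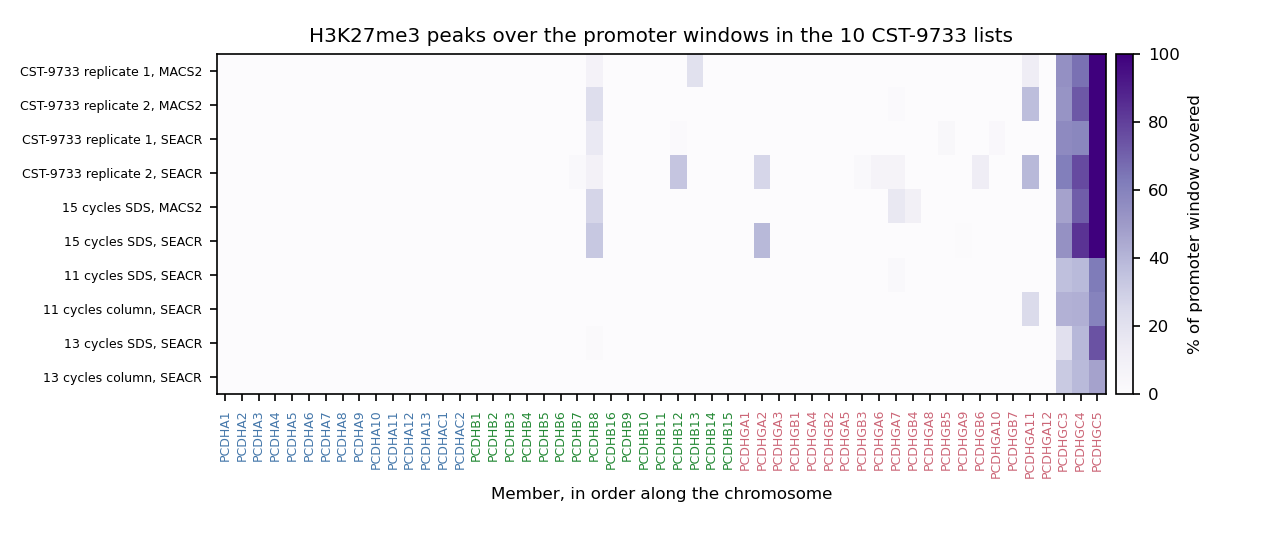
Share of each promoter window covered by H3K27me3 peaks (colour, 0 to 100%), with the 53 members in order along the chromosome and the 10 lists of the 7 CST-9733 libraries as rows, benchmark lists first. PCDHGC3, PCDHGC4 and PCDHGC5 are covered in every row, and the PCDHA columns are empty.

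PCDHGC4 and PCDHGC5 lay under 1 broad H3K27me3 peak that ran on over the first constant exon of the cluster. MACS2 placed it at chr5:140864093-140876638 in replicate 1 and chr5:140863877-140877160 in replicate 2, 12546 and 13284 bp wide, with a fold of 7.75 and 8.26 over background and a -log10 q of 10.5 and 11.97. By SEACR it was 12482 and 14626 bp wide, with a summed signal of 119261 and 151836 and a maximum signal of 33 and 37. In each of the 4 lists the peak was above the 96th percentile in width (96.1, 96.2, 98.1 and 98.1) and above the 97th in strength (-log10 q for MACS2, signal for SEACR). In strength it ranked 1260 of 77412 and 1887 of 65638 by MACS2, and 1305 of 85248 and 1532 of 83643 by SEACR. In the other library made with 15 cycles, MACS2 gave a peak of 12951 bp and SEACR one of 10357 bp. In the 11-cycle and 13-cycle lists several shorter peaks stood in its place.

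PCDHGC3 had a peak of its own, from 2699 to 3256 bp wide in the 4 benchmark lists. It covered 99.1% of the 2581 bp first exon by MACS2 in replicate 1 and 100% in the other lists. Its -log10 q was 2.94 and 5.83 in replicates 1 and 2, below that of the PCDHGC4 to PCDHGC5 peak in the same lists. A further peak overlapped the second constant exon (chr5:140884960-140885048) in each of the 4 lists, from 2073 to 5107 bp wide.

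The highest signal of the broad peak lay at the end of the PCDHGC5 exon or past it. By SEACR in replicate 2 the first and the last base at the maximum were 1072 bp apart, counting both (chr5:140870874-140871945), the first in the exon and the last in the intron. In replicate 1 it fell on 9 bases, chr5:140871942-140871950, 675 bp past the end of the PCDHGC5 first exon and within the intron before the first constant exon. The 300 bases around it (chr5:140871796-140872095, hg19, plus strand) are printed with those 9 in capitals, to show the sequence at the top of the domain in that replicate.
Top of the PCDHGC5 domain: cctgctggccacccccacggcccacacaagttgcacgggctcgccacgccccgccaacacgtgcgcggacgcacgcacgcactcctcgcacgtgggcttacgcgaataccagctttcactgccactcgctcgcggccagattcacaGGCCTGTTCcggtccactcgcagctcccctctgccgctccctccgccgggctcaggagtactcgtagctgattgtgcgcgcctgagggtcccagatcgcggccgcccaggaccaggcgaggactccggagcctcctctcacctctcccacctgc
At PCDHB8, the top in replicate 2 fell inside the exon, on chr5:140559175-140559223, 1804 to 1852 bp past the start and outside the promoter window, with a maximum signal of 8. In replicate 1 it lay at chr5:140559326-140559337, also in the exon, with a maximum of 7. The stretch is shown with 60 bases on each side (chr5:140559115-140559283) and the 49 bases of highest signal in capitals.
Top of the PCDHB8 peak: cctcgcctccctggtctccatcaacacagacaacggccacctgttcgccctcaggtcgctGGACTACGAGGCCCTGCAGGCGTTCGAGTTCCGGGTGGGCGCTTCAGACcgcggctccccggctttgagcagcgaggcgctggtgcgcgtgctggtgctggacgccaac

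**Figure D3:**
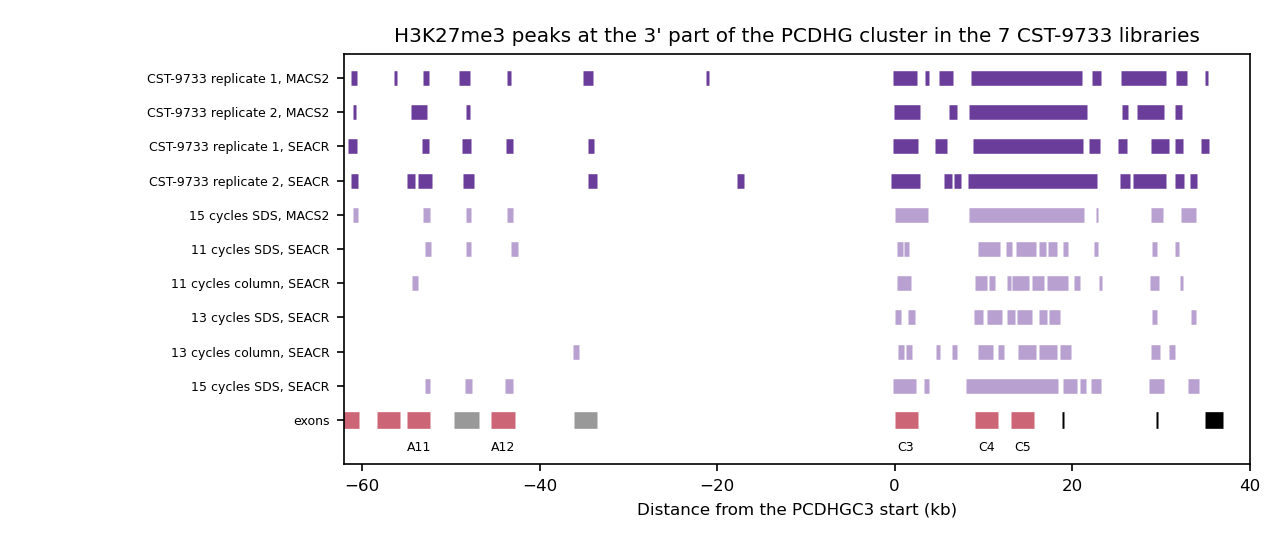
H3K27me3 peaks by distance from the PCDHGC3 start in kb for the 10 lists of the 7 CST-9733 libraries (dark for benchmark, light for the others). The lower row shows first exons in red, pseudogenes in grey and constant exons in black. One peak of 12.5 to 14.6 kb covers PCDHGC4, PCDHGC5 and the first constant exon in the 4 benchmark lists, and the C-type genes carry peaks in every row.

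Over whole spans, H3K27me3 covered far more of PCDHG than of the other clusters. PCDHG was covered to 17.9% and 14.6% by MACS2 in replicates 1 and 2 (16.2% ± 2.29, SD, n = 2) and to 16.1% and 21.4% by SEACR (18.8% ± 3.79, SD, n = 2). PCDHB was covered to 1.83% and 1.3% by MACS2 and to 2.94% and 2.27% by SEACR, and PCDHA to 0% in all 4. Of the genome, the same lists covered 7.0% and 6.25% by MACS2 and 6.46% and 7.40% by SEACR. PCDHG lay above its list's genome share in 10 of 10 CST-9733 lists, and PCDHB and PCDHA below it in 10 of 10.

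The difference between clusters was tested over the 7 CST-9733 libraries with a SEACR list. PCDHG exceeded PCDHA by 11.4 percentage points ± 5.85 (SD, n = 7) and PCDHB by 10.3 ± 4.90, each in 7 of 7 libraries (adjusted p = 0.0234, exact sign-flip permutation test, two-sided, Benjamini-Hochberg over 3 pairs). PCDHB exceeded PCDHA by 1.00 ± 1.14 percentage points, in 6 of 7 (adjusted p = 0.03125, same exact test), and with the 50% of peaks of highest signal alone this pair no longer passed (0.22 points, adjusted p = 0.50). PCDHA was at 0 in each of these lists, so differences from it could not be negative. Their p-values were set by how many libraries had any peak in the other cluster, not by the size of the difference. The difference between PCDHG and PCDHB could have taken either sign. With the same sign in 7 of 7 libraries, its p is the smallest that 7 libraries allow (p = 0.0156 before adjustment, exact sign-flip permutation test). That p would be the same whatever the size of the difference. These libraries share the antibody and the cell line and differ in cycles and extraction.

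Between the marks, H3K27me3 exceeded H3K27ac in PCDHG by 16.2 points by MACS2 and 18.8 by SEACR, and in PCDHB by 1.57 and 2.61. Each was as extreme as the 28 ways to pick 2 of 8 libraries allow (p = 0.0357, exact permutation test, two-sided), yet no cluster passed after adjustment over 6 comparisons (adjusted p = 0.0536 for PCDHB and PCDHG, and 1 for PCDHA, where the difference was 0). With every H3K27ac library at 0, any coverage in both H3K27me3 libraries gives this p, whatever its size, so the test says nothing of the size. The H3K27me3 lists also covered more of the genome, and the marks were called with different settings, so mark and settings cannot be told apart. With each list's genome share subtracted, PCDHG stayed higher for H3K27me3 (10.7 and 13.8 points by MACS2 and SEACR), and PCDHB turned lower (-3.98 and -2.33).

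**Figure D4:**
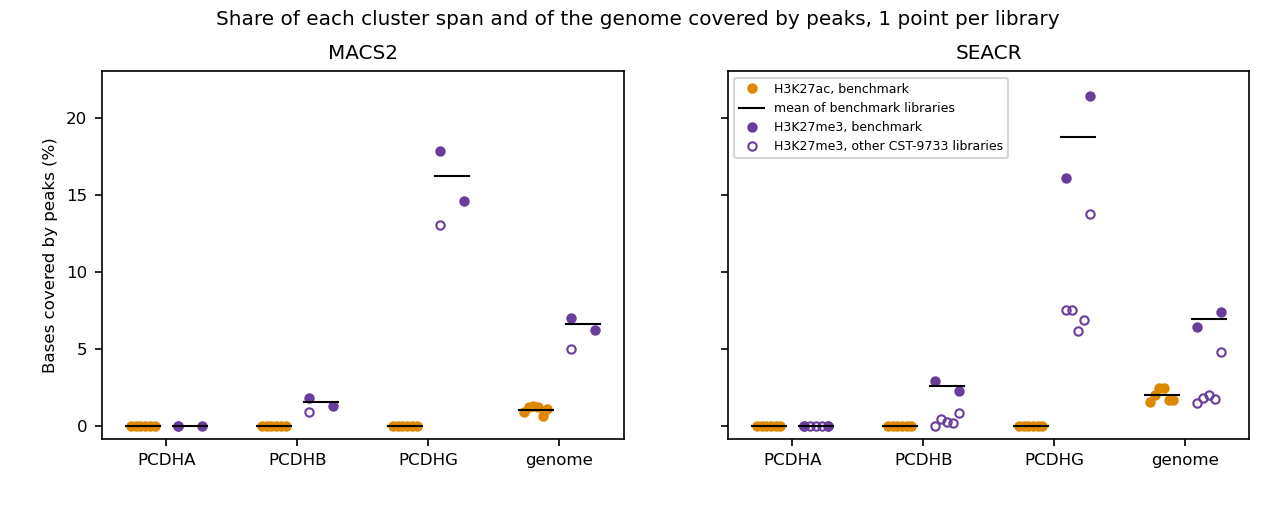
Share of bases covered by peaks (%, 1 point per library) in the 3 cluster spans and the genome, for MACS2 and SEACR, with H3K27ac in orange, H3K27me3 in purple, the other CST-9733 libraries as open points and lines at the benchmark means. H3K27me3 reaches 14.6% to 21.4% in PCDHG in the benchmark libraries, and every H3K27ac point is at 0 in the clusters.

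Most of the PCDHG coverage came from its last 38.5 kb, the C-type genes and constant exons. That part makes up 21.1% of the span and held from 66.6% to 95.0% of the covered bases in the 10 lists. It was covered to 64.3% and 56.3% by MACS2 and 59.3% and 67.6% by SEACR in benchmark replicates 1 and 2. The 144 kb before it, which holds the 19 other members, was covered to 5.42% and 3.48% by MACS2 and 4.52% and 9.09% by SEACR. In 2 of 10 lists that part was above the genome share of its list, namely SEACR in benchmark replicate 2 and in the 11-cycle SDS library.

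First exons held many of the H3K27me3 peaks. Of the peaks within the clusters and their edges in the benchmark lists (28 and 16 by MACS2, 22 and 22 by SEACR), 17, 11, 11 and 13 touched a first exon, and 3, 1, 4 and 2 touched a pseudogene of the family, such as PCDHGB8P, and no first exon. First exons are 25.7% of the bases of the 3 spans and held 42.6% and 51.0% of the covered bases by MACS2, and 44.7% and 50.1% by SEACR. Without PCDHGC3, PCDHGC4 and PCDHGC5, there were 15 and 9 peaks on first exons by MACS2 and 9 and 11 by SEACR, and their centres lay at a median of 1979 and 2042 bp past the start by MACS2 and 2020 and 1891 bp by SEACR. The centre was over 1500 bp past the start in 13 of 15 and 7 of 9 of them by MACS2, and in 9 of 9 and 9 of 11 by SEACR.

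The promoter windows ended before many of these peaks. Of the 35 PCDHB and PCDHG members other than the C-type genes, 1 and 1 by MACS2 and 0 and 2 by SEACR were covered in the first 500 bp. Between 1500 and 2000 bp, 14 and 9 by MACS2 and 8 and 10 by SEACR were covered, of the 33 whose first exon reaches that far. No PCDHA exon was covered at any step. Counted over the whole first exon, an alternative that was added once the values were known, 12 members were called in both libraries by MACS2 and 10 by SEACR, among them PCDHB7, PCDHGA7, PCDHGA9 and PCDHGA10, and no PCDHA member. These are 22.6% and 18.9% of members, against 18.3% and 18.4% of all protein-coding genes, whose first exons are shorter (a median of 185 bp against 2599 bp). Windows of 3 kb either side gave 17 (32.1%) and 16 (30.2%), against 23.8% and 23.3% of all promoters. The members' share was thus above the background with these windows and below it with 1.5 kb. Windows this wide also reach peaks on neighbours. By MACS2 in replicate 2, PCDHB16 and PCDHB13 were reached only by peaks on the PCDHB8 and PCDHB12 first exons. PCDHGB4 and PCDHGB7 were reached only by peaks on PCDHGA7 and PCDHGA10, and PCDHGA12 only by a peak on PCDHGB8P. The part of such peaks in the members' share was not tested.

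In strength these peaks ranged over much of their lists. Without the C-type genes, the peaks on first exons had a median percentile of 42.3 and 39.2 by MACS2 (-log10 q) in replicates 1 and 2, and of 30.6 and 42.8 by SEACR (signal). The PCDHGA7 peak, with a fold of 4.02 and 3.66 by MACS2, stood at the percentiles 81.7 and 49.5, and the PCDHGA10 peak, with a fold of 3.01 and 3.4, at 42.3 and 35.4. When only the 50% of each list with the highest -log10 q or signal was kept, the members called in both libraries were PCDHGC3, PCDHGC4 and PCDHGC5 by both callers.

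**Figure D5:**
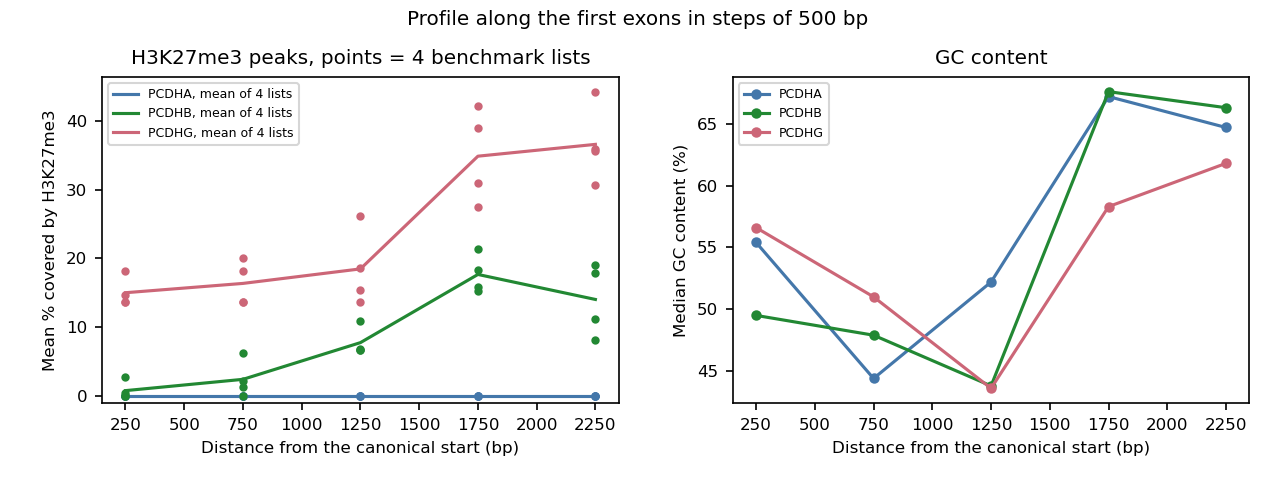
Left, mean share of each 500 bp step of the first exons covered by H3K27me3 peaks (%, points for the 4 benchmark lists, lines for their mean) against distance from the canonical start in bp. Right, median GC content (%) of the same steps. PCDHB and PCDHG coverage is highest between 1500 and 2500 bp, and PCDHA coverage is 0 throughout. GC content from 1500 bp on is above 58% in all 3 clusters.

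Base composition also changed along the exons. Median GC content was 43.6% in PCDHG and 43.8% in PCDHB exons between 1000 and 1500 bp and rose to 58.3% and 67.6% between 1500 and 2000 bp, while in PCDHA it was 52.2% and 67.2% in these steps. The observed over expected CpG ratio in that step was 1.13 in PCDHA, 0.88 in PCDHB and 0.66 in PCDHG. The exons also resemble each other in sequence. Of the stretches of 75 bp, the read length the methods give, 33.1% in PCDHB, 6.92% in PCDHA and 3.45% in PCDHG recurred elsewhere in the clusters between 1500 and 2000 bp. In the peaks that touched a single first exon, PCDHGC3 included, the median was 1.12% and 13.8% by MACS2 and 6.89% and 0% by SEACR, and the highest value was 64.6%, at PCDHB8. None recurred in the PCDHGC4 to PCDHGC5 peak or the PCDHGC3 peak. The part of shared sequence in the calls was not tested.

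Promoter windows of members were low in GC. The median GC content was 41.7% over members against 52.3% over all protein-coding promoters, and 1 member, PCDHAC1 (54.0% GC, ratio 0.74), met the limits used for a CpG-rich window (at least 50% GC and a CpG ratio of at least 0.6), against 32.4% of all promoters. PCDHAC2 had the highest GC content of all members, 54.8%, and neither it nor PCDHAC1 had a peak of either mark. The median CpG ratio was 0.54 over members and 0.55 over all promoters. PCDHGC5 had the lowest CpG ratio, 0.22, and the window with the most H3K27me3 in the benchmark lists. PCDHGC4 and PCDHGC5 had the highest GC content of the PCDHG cluster (51.3% each).

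Other gene families gave different mixtures of marks. Of 39 HOX genes, 25 had H3K27me3 in both libraries by each caller, and 8 by MACS2 and 6 by SEACR had H3K27ac in at least 3 of 6. Of 177 olfactory receptor genes on chromosome 11, another family in tandem clusters, 7 by MACS2 and 6 by SEACR had H3K27me3 in both libraries, and 158 and 160 had neither mark in any list of the caller. Of the 53 members 45 (84.9%) and 38 (71.7%) had neither, against 24.6% and 27.5% of all protein-coding promoters. Of 249 ZNF genes on chromosome 19, 125 and 77 had H3K27ac and 5 had H3K27me3 by each caller. These counts stand side by side and were not tested, since genes of a cluster are not independent.

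The protocadherins outside the clusters were mostly without a peak as well. Of 12, PCDH12 had H3K27ac in 6 of 6 libraries by both callers and PCDH1 had H3K27me3 in both libraries by both callers, and the remaining 10 by SEACR had neither. By MACS2, PCDH1 also had H3K27ac in 1 library and PCDH9 in 2. PCDH1 and PCDH12 lie 1093 and 1184 kb from the PCDHA1 start on the same chromosome, the others elsewhere.

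Most neighbours and the genes for regulators of the clusters carried H3K27ac. Of 31 other protein-coding genes whose start lies within 500 kb, 21 by MACS2 and 20 by SEACR had H3K27ac in at least 3 of 6 libraries. ZMAT2, the nearest upstream, had it in 3 and 6 libraries, TAF7, between PCDHB and PCDHG, in 5 and 3, and DIAPH1, the nearest downstream, in 6 and 6. SLC25A2 and both further protein-coding models inside the clusters had neither mark. All 11 genes listed as regulators of the clusters had H3K27ac in at least 3 of 6 libraries by MACS2 and 10 did by SEACR, with CTCF (the insulator protein), RAD21 and SMC3 (cohesin subunits) at 6 and 6 and the histone methyltransferase gene SETDB1 at 6 by MACS2 and 1 by SEACR. None of the 11 had H3K27me3.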

How the data were processed

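Peak lists of 38 CUT&Tag libraries of K562 cells were analysed, 56 in all. The authors had called them library by library, 18 with MACS2 and 38 with SEACR. According to the methods and the submitters' processing notes, reads were trimmed with Trim Galore (0.6.6), aligned to hg19 with Bowtie2 (2.2.9), cleared of duplicates with Picard (2.6.0) and handled with SAMtools (1.3.1) and bedtools (2.25.0). In the deposited MACS2 lists the authors give each peak a score, its -log10 q, its -log10 p and its fold over background, with narrow peaks for H3K27ac and broad ones for H3K27me3. In the deposited SEACR lists the authors give the summed signal and the maximum signal of each peak, from fragment coverage, and used a looser threshold for H3K27me3. The sources used here differ on the SEACR mode. Blacklisted regions were not removed here.

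Of the peaks, 1331138 lay on the autosomes, X or Y and entered the analysis, and 1 ran past a chromosome end of GRCh37, the assembly hg19 names. Gene models came from GENCODE v44 lifted to that build. Windows used the outermost start of a gene. It differed from the canonical start by over 500 bp in 3 members (by up to 2476 bp, in PCDHGA8). In 2 members, PCDHA6 and PCDHA7, the annotation had no canonical transcript, and the one with the most exons was used, ties going to the longest. Positions are 1-based. Covered shares were compared over libraries by exact permutation with Benjamini-Hochberg adjustment. The tests and the overlap code were tested on simulated data and, for overlap, against bedtools 2.31.1. One further marker gene is not reported here. Members and gene lists were chosen with earlier results of these data known. Genes named are the C-type members and PCDHB1, the first and last of each cluster, up to 3 members per cluster, caller and mark that most libraries call and up to 3 exceptions, the highest and lowest covered windows, the nearest neighbours, up to 3 examples of each list, and all where a count is 5 or fewer, and others are named after their values were seen. Alternatives were windows of 3 and 0.5 kb, an overlap of 500 bp, the 50% of each list ranked highest, first exons in place of spans, a replicate block, and leaving out each library. Replicate numbers were not used to pair libraries in the main tests, and the labels do not say whether libraries of the same number share a batch. Deviations of benchmark replicates over 1-Mb bins correlated at -0.18 to 0.546 between groups by MACS2, with 1 of 6 pairs over 0.1, and at -0.0256 to 0.0379 by SEACR. Software was samtools 1.23.1, matplotlib 3.10.9, pandas 2.3.3, numpy 2.4.6 and Python 3.11.15.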

Additional observations from a re-analysis of the deposited data

Results flagged for a closer look

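In 1 of the other libraries, ab177178 with 11 PCR cycles and column extraction, SEACR placed an H3K27ac peak of 523 bp in the first exon of PCDHGA10 (chr5:140794474-140794996), 1920 to 2442 bp past its start and outside the promoter window. It was the single H3K27ac peak within the 3 spans in the 46 H3K27ac lists, at the 22.3 percentile of signal in its list and with a maximum signal of 5. H3K27me3 peaks overlapped the same part of the exon in the 4 benchmark H3K27me3 lists.

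Among the 6 benchmark H3K27ac libraries, ab4729 replicate 1 stood apart by MACS2 because it lacked the TAF7 peak, so that the next peak after PCDHA1 lay 819 kb on (534 kb in each of the others) and the gap was 879 kb (594 kb in each of the others). Its MACS2 list was also the smallest of the 6, with 21317 peaks over 0.653% of the genome, against 0.940% to 1.29% in the others. The part of list size was not tested. In ab177178 replicate 1 a peak lay 0.947 kb past the last PCDHG exon by MACS2 and 0.589 kb past it by SEACR, against 77.3 to 92.6 kb and 85.9 to 92.2 kb in the other libraries. These 4 came from 16 groups of values, and chance marks about 1 in 20 where groups are independent. They are not independent. Both values of ab4729 replicate 1 follow from the missing TAF7 peak, and both of ab177178 replicate 1 come from overlapping peaks of the callers. The 4 can therefore not be set against that rate.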

How the results depend on the processing

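Counts of members with H3K27me3 moved with the window and the strength of peaks, and no alternative gave a PCDHA member or any member with H3K27ac. Called in both libraries by MACS2 and SEACR were 17 and 16 members with windows of 3 kb, 3 and 3 with 0.5 kb, 3 and 3 with an overlap of 500 bp, 3 and 3 with the stronger 50% of each list, and 12 and 10 over whole first exons. In at least 1 library the counts were 21 and 23, 5 and 5, 6 (SEACR, 500 bp), 5 and 7, and 17 (MACS2, whole exons). Among these alternatives, shares of all promoters were counted only for calls in both libraries with 3 kb windows and whole first exons, given above. The other counts have no background here, so whether a fall in them is particular to the members was not tested. Starting from the canonical start, chosen after seeing the data as was the whole exon, moved no count by over 1.5 times. With 1 H3K27me3 library left out, 6 to 7 members were called by MACS2 and 8 to 12 by SEACR.

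With the genome share subtracted, the differences between marks were -5.55 and -4.94 points for PCDHA by MACS2 and SEACR, which is the difference in genome share alone since PCDHA is at 0 for both marks, -3.98 and -2.33 for PCDHB, which reversed, and 10.7 and 13.8 for PCDHG (adjusted p = 0.0357 for each, exact permutation, the smallest possible). With the replicate block, which allows no p below 0.0625 (exact permutation within replicate numbers), the differences were unchanged at 1.57 and 16.2 points (MACS2, PCDHB and PCDHG) and 2.61 and 18.8 (SEACR), and no call changed. H3K27ac in the clusters minus the genome share, which is that share alone, ranged over -1.16 to -1.03 (MACS2) and -2.08 to -1.90 points (SEACR) with 1 library left out, where 5 libraries cannot give a p under 0.0625 by exact permutation. PCDHB minus PCDHA in H3K27me3 was 0.22 points with the stronger 50% of peaks and 0.68 to 1.17 with 1 library left out, passing only without the 11-cycle SDS library, in which both were at 0. With the 5 libraries outside the benchmark no p can pass, and the differences were 0.36 points for PCDHB minus PCDHA, 8.39 for PCDHG minus PCDHA and 8.02 for PCDHG minus PCDHB. First exons in place of spans, and log2 of percent plus 1 for H3K27ac, changed no call. Peak lists hold no counts, so depth limits what a missing peak can mean.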
